A study of Macaca fascicularis and Macaca mulatta and Papio anubis with 20 samples.

Results

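SCN9A, SCN10A and SCN11A encode the pore-forming alpha subunits of 3 voltage-gated sodium channels of pain-sensing neurons. They were chosen by symbol, and each matched 1 feature, so that the group is 3 of the 22000 features counted in *Macaca fascicularis*. The data are Visium spatial gene counts from dorsal root ganglia, which house the cell bodies of sensory neurons next to the spinal cord. In this assay a tissue section is laid on a slide printed with barcoded spots, and unique molecular identifiers (UMIs) keep a transcript from being counted more than once. Because one spot may cover several cells of different types, a share of spots is not a share of cells.

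The 20 sections were cut 10 µm thick and 100 µm apart from fresh frozen ganglia, with no treatment and no age given. Of these, 16 were labelled *M. fascicularis*, in 4 groups of 4 sections: a female and a male in batch 1, and a female and a male in batch 2. A further 2 sections were labelled *Macaca mulatta* and 2 *Papio anubis*, both in batch 2 with no sex given. The sections of a group share a title code and were treated as 1 specimen, which the labels do not state. P-values over sections or spots of one specimen would measure only the spread within it, so tests ran over specimens.

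Before the results, a limit on the species labels has to be stated. The 2 sections with the label *M. mulatta* list genes under the Ensembl prefix of *P. anubis*, the 2 with the label *P. anubis* list them under that of *M. mulatta*, and the file codes are crossed in the same way. Values given for one of these labels may therefore belong to the other species. The *M. fascicularis* sections held between 1136433 and 7073134 UMIs each, the sections labelled *M. mulatta* 190376 and 264661, and those labelled *P. anubis* 595020 and 12595205. The spots of 1 male section of batch 2, section 3, were not analysed here, and its level came from its gene table. All 8 measured genes of a neuron list (STMN2, SNAP25, SYT1 and others) had UMIs in both batches, and their summed level was 10483 to 13334 counts per 1000000 UMIs of a section (CPM) in batch 1 sections and 10469 to 15514 in batch 2 sections.

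Voltage-gated sodium channels open on depolarization and carry the inward current of the action potential. The SCN9A channel is sensitive to tetrodotoxin, amplifies slow depolarizations near threshold, and its loss abolishes pain sensation in people. The SCN10A and SCN11A channels resist tetrodotoxin: the first carries most of the upstroke in nociceptors, and the second passes a persistent current near the resting potential. In the macaque RefSeq assembly T2T-MFA8v1.1, SCN10A and SCN11A lie on 1 chromosome with 0 protein-coding genes between them, and SCN9A lies on another.

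SCN9A, the tetrodotoxin-sensitive member, had similar levels in the 4 *M. fascicularis* specimens. In the female of batch 1 its level was 35.4, 30.9, 27.3 and 28.6 CPM in sections 1 to 4, a mean of 30.6 ± 3.57 (SD, n = 4 sections). In the male of batch 1 it was 34.5, 26.6, 29.3 and 25.2 CPM, a mean of 28.9 ± 4.11 (SD, n = 4). In the female of batch 2 it was 26.7, 22.3, 15.9 and 32.6 CPM, a mean of 24.4 ± 7.05 (SD, n = 4). The groups overlapped throughout. In the male of batch 2 it was 46.0, 27.8, 38.0 and 44.9 CPM, a mean of 39.2 ± 8.34 (SD, n = 4), the highest of the 4 specimens, although its lowest section lay inside the range of the others.

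SCN10A gave few UMIs in every section: 19 and 29 in all for the female and male of batch 1, and 135 and 50 for those of batch 2. Its level was 0.621, 1.40, 1.33 and 0.767 CPM in the female of batch 1 and 0.828, 2.07, 1.34 and 1.56 CPM in the male. In batch 2 it was 10.5, 3.56, 4.59 and 9.96 CPM in the female and 6.83, 4.73, 7.90 and 2.64 CPM in the male. Every section of batch 2 lay above every section of batch 1. The means were 1.03 ± 0.395 and 1.45 ± 0.512 CPM in batch 1 against 7.14 ± 3.57 and 5.53 ± 2.33 CPM in batch 2 (SD, n = 4 sections each, female before male).

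SCN11A gave 20938 UMIs over the *M. fascicularis* sections and varied widely between sections of one specimen. Its level was 368, 683, 224 and 242 CPM in the female of batch 1 and 711, 581, 323 and 344 CPM in the male of batch 1. In both specimens sections 1 and 2 lay above sections 3 and 4. In batch 2 it was 268, 115, 101 and 179 CPM in the female and 365, 323, 359 and 258 CPM in the male. The means were 379 ± 212 and 489.9 ± 188 CPM in batch 1 and 166 ± 76.1 and 326 ± 49.1 CPM in batch 2 (SD, n = 4, female before male). In order of mean level the specimens ran from the male of batch 1 through the female of batch 1 and the male of batch 2 to the female of batch 2, and the sections of each neighbouring pair in that order overlapped. In bulk sums over a section, fewer neurons of a type and less RNA per neuron cannot be told apart.

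**Figure D1:**
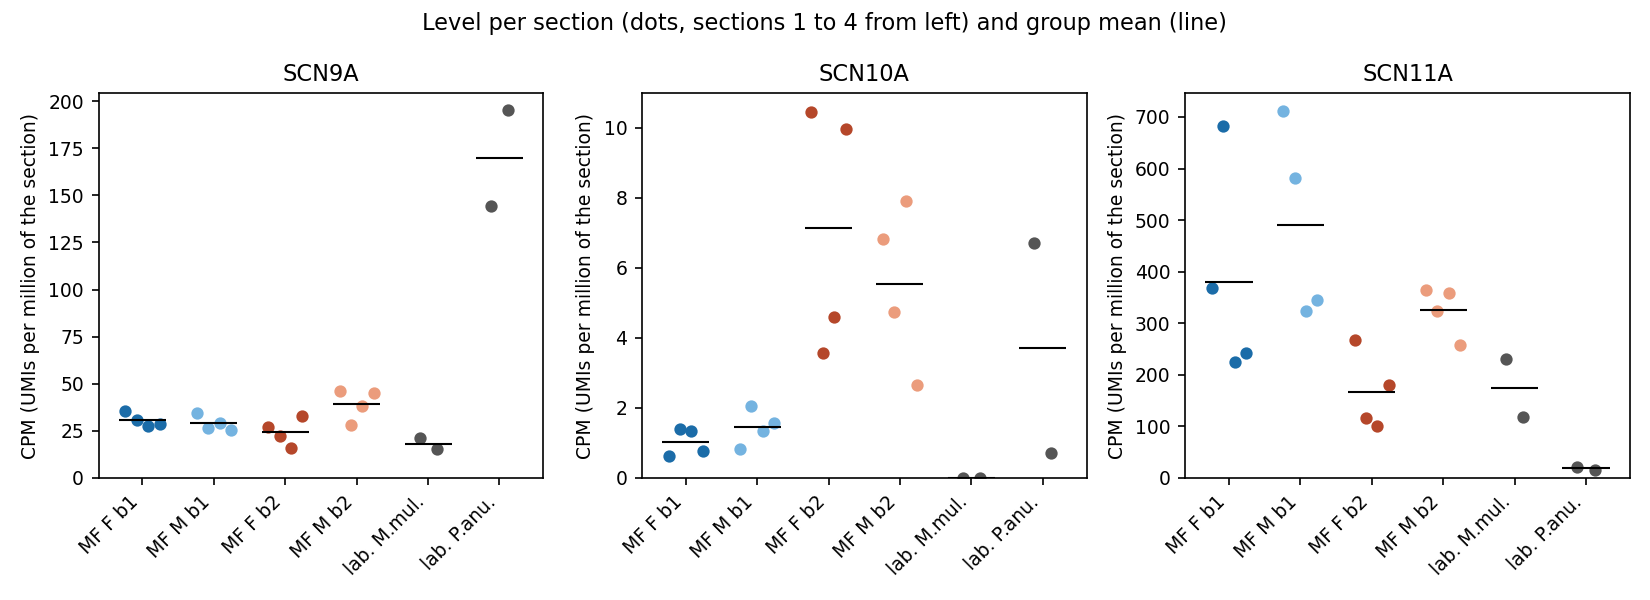
Level of each gene (CPM, linear axis) in every section: dots are sections and lines are group means, for the 4 *M. fascicularis* specimens (MF; F female, M male, b batch) and the 2 other labelled species. SCN10A in batch 2 lies above all of batch 1 on few UMIs, and the sections labelled *P. anubis* have high SCN9A and low SCN11A.

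The batch comparison summed each specimen and fitted batch and sex together with edgeR's quasi-likelihood test, which left 1 residual degree of freedom per gene beside the spread shared across genes. In it 160 of 12650 genes, 1.26%, were higher in batch 2 at an adjusted p under 0.05, and 1.61% were lower. SCN10A was higher, with a log2 fold change of 2.41 ± 0.49 (SE, n = 2 specimens against 2) and an adjusted p of 0.0453 by edgeR. SCN9A differed by 0.24 ± 0.25 (adjusted p 0.666) and SCN11A by -0.69 ± 0.24 (adjusted p 0.175), so neither passed. The SCN10A call is close to its threshold: without male batch 2 section 1, 2 or 3 or male batch 1 section 3 the adjusted p was between 0.0511 and 0.0968, and with all sections thinned to the lowest total it was 0.165, while the fold change stayed between 2.30 and 2.54 over the 16 settings that leave out a section.

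Marker genes of other cell types also differed between the batches, within the immune list in both directions. Whether the shares of cell types differed was not tested. The summed level of the 6 fibroblast genes (COL1A1, DCN and others) was 3007 to 6963 CPM in batch 1 and 1216 to 3326 CPM in batch 2, and 4 of the 5 tested were lower in batch 2. COL1A1, a fibrillar collagen chain, fell by 5.73 ± 0.48 on the log2 scale. The 6 immune genes summed to 1535 to 2070 CPM in batch 1 and 393 to 1058 CPM in batch 2. Of these, 1 was lower in batch 2, AIF1, at -1.08 ± 0.23, and 1 was higher, the macrophage receptor CD163, at 2.11 ± 0.22 (edgeR adjusted p 0.0495 and 0.00453). The 4 measured satellite glia genes summed to 314 to 591 CPM in batch 1 and 150 to 276 CPM in batch 2. Among the *M. fascicularis* sections with a matrix, the version of the counting software, Space Ranger, also went with the batch. The part of these in the SCN10A difference was not tested. Per 100 UMIs of the neuron list of the same section, SCN10A gave 0.00593 to 0.0157 UMIs in batch 1 and 0.0203 to 0.0766 in batch 2. These ranges did not overlap either, but they rest on the same few UMIs, and the share of all genes without overlap is not given here.

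None of the 3 genes passed between sexes. In the same fit 0 of 12650 genes (0.0%) passed between male and female, 169 had an unadjusted p under 0.05, and DESeq2 and limma-voom also called 0. The log2 difference, male over female, was 0.23 ± 0.25 for SCN9A, -0.04 ± 0.48 for SCN10A and 0.64 ± 0.24 for SCN11A (SE, n = 2 specimens against 2; edgeR adjusted p 0.998 for each). For SCN11A the male specimen had the higher summed level in both batches, 469 against 361 CPM in batch 1 and 339 against 164 CPM in batch 2, and its unadjusted p was 0.0278. With 4 specimens the design shows only large differences.

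The sections labelled *P. anubis* differed from all *M. fascicularis* sections in 2 of the 3 genes. Over genes shared by the feature sets, SCN9A was at 263 and 361 CPM, against 26.8 to 70.6 CPM in the 16 *M. fascicularis* sections, a mean 6.52-fold higher. SCN11A was at 39.8 and 26.7 CPM against 170.4 to 1089.9 CPM, a mean 15.8-fold lower. SCN10A, with 4 and 9 UMIs, was at 12.2 and 1.32 CPM, inside the *M. fascicularis* range of 0.935 to 17.2 CPM. Of 12048 shared genes, 8.25% were at least 4-fold higher with no overlap of sections and 8.93% at least 4-fold lower, so differences of this size are common between these feature sets and no test was made.

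Other nociceptor genes differed in both directions in the sections labelled *P. anubis*. Of 7 shared peptidergic genes 0 were at least 4-fold higher with no overlap of sections and 2 at least 4-fold lower, CALCA and TRPV1. Of 10 shared genes of other nociceptors 4 were higher and 1, RET, was lower. CALCA, which encodes the neuropeptide CGRP, was at 73.4 and 20.4 CPM against 559 to 1606 CPM in *M. fascicularis*. TRPV1, the capsaicin receptor, was at 0.0 and 0.294 CPM against 80.0 to 188 CPM, and RET, the receptor of the GDNF family, at 61.2 and 56.6 CPM against 281 to 656 CPM. TAC1, the precursor of substance P, was at 1257 and 1999 CPM, inside the *M. fascicularis* range of 680 to 2205 CPM. The higher genes were LPAR3, a lysophosphatidic acid receptor, at 101 and 176 CPM against 0.867 to 4.30 CPM, TRPM8, the cold receptor, at 58.1 and 81.3 CPM against 4.65 to 17.8 CPM, OSMR, the oncostatin M receptor, at 45.9 and 68.6 CPM against 4.51 to 13.2 CPM, and PENK, the enkephalin precursor, at 33.6 and 60.7 CPM against 0.0 to 32.3 CPM. The annotation that each feature set gives to these genes was not compared, and its part in the differences was not tested.

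The sections labelled *M. mulatta* were too shallow for SCN10A. It had 0 UMIs in both, which allows up to 15.8 and 11.3 CPM (3 counts of the section total), above the highest *M. fascicularis* section. SCN9A had 4 UMIs in each, at 21.0 CPM (95% exact Poisson interval 5.72 to 53.8) and 15.1 CPM (4.12 to 38.7). SCN11A had 44 and 31 UMIs, at 231 CPM (168 to 310.3) and 117 CPM (79.6 to 166). These intervals cover counting error only, and they overlap the *M. fascicularis* sections for both genes. The levels in this paragraph are over all features of a section. Over shared genes, SCN9A was at 41.2 and 29.6 CPM and SCN11A at 453 and 229 CPM, inside the *M. fascicularis* ranges given above for shared genes. Of 11901 shared genes, 8.1% were at least 4-fold higher with no overlap and 29.5% at least 4-fold lower, and neither SCN9A nor SCN11A was among them.

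Within the *M. fascicularis* ganglia the members followed the neuron-rich spots. In the 15 sections with spots, 18594 spots under tissue had at least 200 UMIs. SCN9A was detected in 1467 of them (7.89%), SCN10A in 203 (1.09%) and SCN11A in 5866 (31.5%). A spot with a UMI held on average 1.19 UMIs of SCN9A, 1.07 of SCN10A and 3.44 of SCN11A, and at most 5, 3 and 48. In all, 58 spots held all 3 genes, 1094 held 2, 5174 held 1 and 12268 held none.

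Detection moved with the depth of a spot. Spots with a UMI of SCN9A had a median of 7700 UMIs and those without 1255. For SCN10A the medians were 7947 and 1418, and for SCN11A 4918.5 and 866.5. Thinned to 500 UMIs per spot, the share of spots with SCN11A was 4.01% to 20.9% over the sections (median 12.7%), against 12.0% to 69.2% unthinned. The thinned share of SCN9A was 0.759% to 2.12%, and that of SCN10A 0.0% to 0.579%, near the level of single UMIs.

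Spots of each section were ranked by the share of their UMIs in the neuron list and cut into 4 bins of equal size. SCN11A rose from 98.2 CPM in the lowest bin to 450.3 CPM in the highest in the female of batch 1, from 115 to 596 CPM in the male of batch 1, and from 49.9 to 189 CPM in the female of batch 2. In the male of batch 2 it went from 304 to 373 CPM. That specimen was the flattest of the 4: the SCN11A level of its lowest bin was above that of the highest bin of the female of batch 2.

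SCN9A went from 10.3 to 37.6 CPM, from 10.9 to 34.2 CPM, from 11.2 to 26.6 CPM and from 28.5 to 45.5 CPM in the same order of specimens. SCN10A had 0 UMIs in the lowest bin of both batch 1 specimens, and went from 2.50 to 9.31 CPM and from 2.48 to 9.84 CPM in the female and male of batch 2. Between the lowest and highest bin the median depth also rose, from 807 to 7299 UMIs per spot in the female of batch 1 and from 527.5 to 1055 in the male of batch 2. Thinned to 500 UMIs, the share of spots with SCN11A was 3.60% in the lowest and 14.5% in the highest bin of the female of batch 1, 5.79% and 21.8% in the male of batch 1, 3.53% and 8.35% in the female of batch 2 and 13.7% and 15.9% in the male of batch 2.

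**Figure D2:**
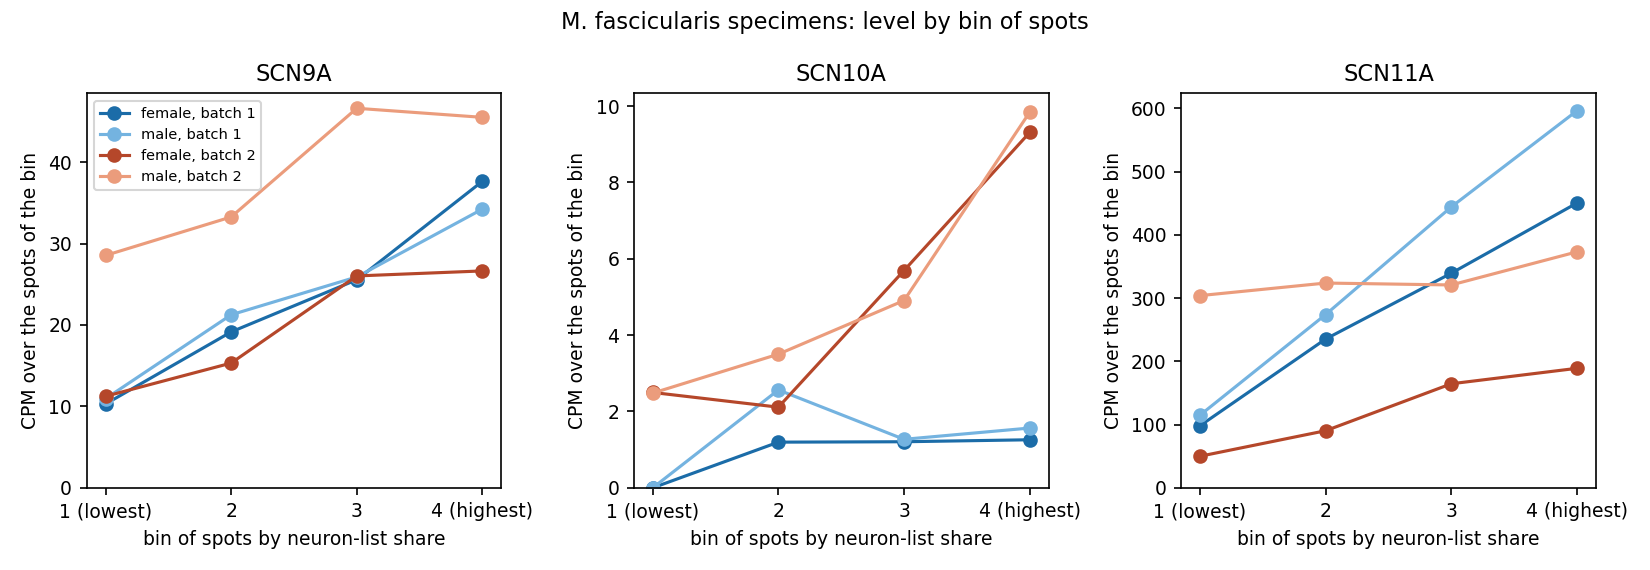
CPM of each gene (vertical axis, linear, from 0) in the 4 bins of spots ranked by neuron-list share (horizontal axis); each line is 1 *M. fascicularis* specimen, with the UMIs of its sections summed. SCN11A climbs in 3 specimens and is nearly level, 304 to 373 CPM, in the male of batch 2.

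The test of highest against lowest bin, over specimens and with the specimen as a block, left the ranking genes out of the calls. In it 19.3% of 9661 genes were higher in the highest bin and 23.1% lower. SCN9A and SCN11A were higher in 4 of 4 specimens. SCN10A was too, but on 0, 0, 2 and 2 UMIs in the lowest bins against 10, 14, 94 and 16 in the highest (females and males of batches 1 and 2 in turn). With 0 UMIs in the shallow lowest bins of batch 1, its direction in those specimens is not settled. The log2 fold change was 1.34 ± 0.25 for SCN9A (edgeR adjusted p 0.00109), 2.18 ± 0.65 for SCN10A (0.0169) and 1.69 ± 0.30 for SCN11A (0.000808; SE, n = 4 specimens). With neurofilament genes added to the ranking list, SCN11A was at 0.67 ± 0.28 and no longer passed (adjusted p 0.0669), and without the male of batch 1 SCN10A did not pass (0.0519). Without the female of batch 2 SCN10A had too few UMIs to be tested.

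Of the other pathway genes in that comparison, 7 of 9 tested partners of sodium channels were higher in neuron-rich spots and 0 lower. Among them were the auxiliary beta subunits SCN4B, at 1.22 ± 0.22, and SCN2B, at 0.98 ± 0.25 on the log2 scale. Of the 7 other alpha subunits listed only SCN7A, which encodes the glial sodium sensor, passed the filter on low counts, and it fell by 1.56 ± 0.58 (edgeR adjusted p 0.0442). That fall rests on 67 UMIs, and in the male of batch 2 SCN7A went the other way, at 1.84 CPM in the highest bin against 1.24 in the lowest. The 7 together summed to 4.04 to 10.6 CPM per section. All 6 tested genes of myelinating Schwann cells and all 5 tested of fibroblasts were lower, with medians of -3.25 and -2.73 against -0.01 over all genes. By the fixed rule of size, the named genes with the largest rises were TAFA4 (3.36 ± 0.70), TRAPPC3L (2.71 ± 0.59), CCDC172 (2.32 ± 0.49), ZDHHC22 (2.31 ± 0.35) and BDNF, a neurotrophin, at 2.30 ± 0.48. These rises rest on few UMIs in the lowest bin, 3, 5, 11, 29 and 9 in the same order. The largest falls were of CCL26, ACTG2 and ACTA2, the last 2 smooth muscle actins, by 5.53 ± 0.51, 5.03 ± 0.31 and 4.92 ± 0.25.

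SCN11A was the member with spatial structure in every *M. fascicularis* section. Moran's I, which is positive where adjacent spots hold similar levels, was 0.0241 to 0.4998 for SCN11A in the authors' deposited table, with an adjusted p under 0.05 in 16 of 16 sections. For SCN9A the authors' deposited table gave -0.00826 to 0.0611, with 5 of 16 sections under 0.05, all of batch 1. For SCN10A it gave -0.00563 to 0.0528, with 1 of 16. Over all genes and the same sections, 16.2% of the entries in the authors' deposited table were under 0.05, and between 5.42% and 40.6% in single sections. SCN11A ranked within the top 0.317% to 5.41% of the genes of a section, while SCN9A ranked anywhere from the top 8.93% to 96.1%. The members also differ in counts, with 20938 UMIs of SCN11A against 1828 of SCN9A and 233 of SCN10A. The part of this in the scores was not tested.

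**Figure D3:**
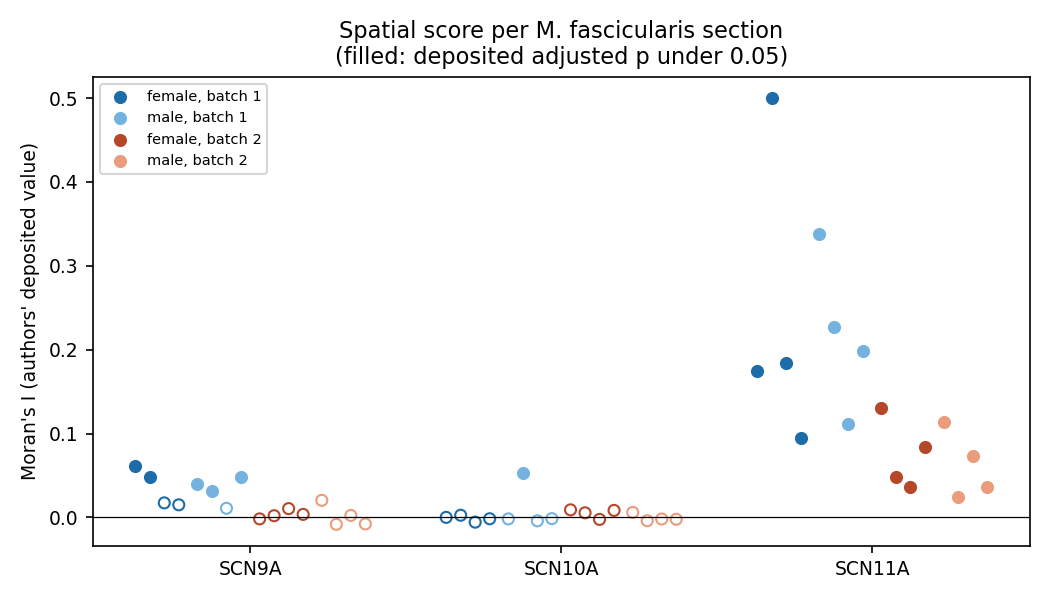
Moran's I per *M. fascicularis* section (vertical axis, the authors' deposited value) for the 3 genes; each point is a section, filled where the deposited adjusted p is under 0.05. All SCN11A points are filled, and the highest, at 0.4998, is section 2 of the female of batch 1.

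In batch 1 the SCN11A score was 0.174, 0.4998, 0.184 and 0.0941 in the female and 0.338, 0.227, 0.111 and 0.199 in the male, per the authors' deposited table. In batch 2 it was 0.131, 0.0479, 0.0368 and 0.0836 in the female and 0.113, 0.0241, 0.0731 and 0.0357 in the male. The authors' deposited table gave no adjusted p under 0.05 for any member in the sections labelled *M. mulatta*. In section 2 labelled *P. anubis*, the deepest of all, it gave 0.0274 for SCN9A and 0.0260 for SCN11A, both under 0.05, and in section 1 neither.

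Of the spots that touch an SCN11A-positive spot, a median of 54.5% over 15 sections also held SCN11A, against 24.9% of those that touch a spot without it, and the first share was higher in 15 of 15 sections. For SCN9A the medians were 18.5% and 7.73%, with the first higher in 14 of 15 sections. For SCN10A the first was higher in 4 of 15. Neighbouring spots also share depth, and its part was not tested.

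The members were found in the same spots more often, by a small margin, than independent detection within strata of depth would give. Expected counts were taken within 10 strata of UMI total in each section, and spots of a stratum still differ in depth. SCN9A and SCN11A shared 1048 spots against 951 expected, a ratio of 1.10, with 0.942 to 1.30 in single sections and 14 of 15 above 1. These were 71.4% of the SCN9A spots and 17.9% of the SCN11A spots. Without strata, with the expected number taken over all spots of a section, the ratio was 2.00.

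The ratio of SCN9A and SCN11A by specimen was 1.10 (female) and 1.07 (male) for batch 1, and 1.16 (female) and 1.08 (male) for batch 2. SCN10A and SCN11A shared 159 spots against 124 expected, a ratio of 1.28, which were 78.3% of the SCN10A spots and 2.71% of the SCN11A spots. Of these, 96 lay in the female of batch 2, where the ratio was 1.39, and the other specimens had 18, 23 and 22 with ratios of 1.32, 1.07 and 1.09. SCN9A and SCN10A shared 61 spots against 43.5 expected, a ratio of 1.40, and 41 of these lay in the female of batch 2. Spots of a section are not replicates, so these ratios are a description. In section 2 labelled *P. anubis*, SCN9A and SCN11A shared 119 spots against 106 expected, a ratio of 1.13.

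**Figure D4:**
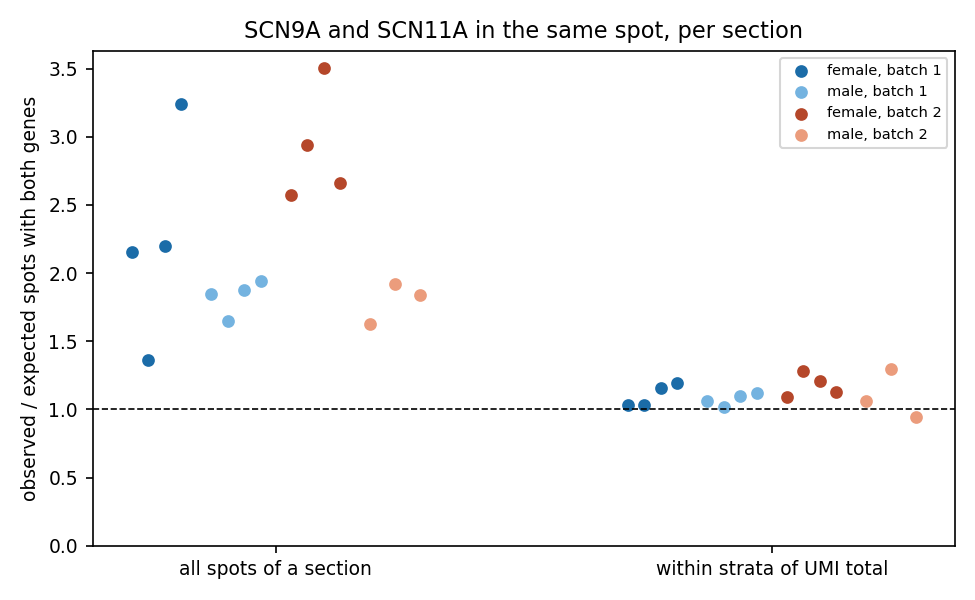
Observed over expected number of spots with both SCN9A and SCN11A (vertical axis) in each of 15 *M. fascicularis* sections, with all spots of a section (left) and within 10 strata of UMI total (right); the dashed line marks 1. The ratios fall from a pooled 2.00 to 1.10 within the strata, and 14 of 15 stay above 1.

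The same question was put to a test over specimens, with spots that held a member summed against spots free of it. SCN11A was higher in SCN9A-positive spots, at 532 against 302 CPM, 572 against 442 CPM, 242 against 146 CPM and 361 against 328 CPM in the females and males of batches 1 and 2 in turn. The log2 fold change was 0.54 ± 0.06 (edgeR adjusted p 1.64e-09, SE, n = 4 specimens), in a comparison where 7.11% of 11225 genes were higher and 11.2% lower. Since positive spots are deeper, they were then paired with free spots of their section within 10% of their UMI total. Positive spots without such a partner were left out. The setting was chosen after seeing the data. The matching was revised once, from no limit on the UMI difference to 10%, after the results of its first version had been seen. Over 1444 such pairs SCN11A was at 0.24 ± 0.05 (adjusted p 0.00738), higher in 3 of 4 specimens and lower in the male of batch 2, at 367 against 379 CPM. In these pairs 3.09% of 10820 genes were called.

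SCN11A was also higher in SCN10A-positive spots. It was at 599 against 358 CPM, 799 against 465 CPM, 290.1 against 157 CPM and 393 against 332 CPM in the 4 specimens, a log2 fold change of 0.67 ± 0.10 (edgeR adjusted p 1.16e-09), where 3.87% of 11046 genes passed (1.18% higher, 2.7% lower). With the 201 depth-matched pairs it was 0.52 ± 0.11 (adjusted p 0.00029), higher in 4 of 4 specimens. Conversely, SCN11A-positive spots had more SCN9A, at 0.82 ± 0.11 (adjusted p 0.000181), and more SCN10A, at 1.66 ± 0.30 (adjusted p 0.00124), where 23.9% of 11967 genes passed (10.5% higher, 13.4% lower). Over the 3679 matched pairs these were 0.56 ± 0.11 (0.000771) and 1.39 ± 0.32 (0.0027), both higher in 4 of 4 specimens. The pairs cover only part of the 5866 SCN11A-positive spots, and the shallower part. The paired positive spots had a median of 3153 UMIs, against 4918.5 in all of them. Without the female of batch 2, which held most SCN10A UMIs, SCN10A in SCN11A-positive spots was at 1.15 and did not pass (adjusted p 0.0772).

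The difference between SCN9A and SCN10A in each other's spots did not pass at matched depth. SCN10A in SCN9A-positive spots was at 0.72 ± 0.25 (edgeR adjusted p 0.0319), and at 0.22 ± 0.29 (adjusted p 0.848) in the matched pairs. DESeq2 gave an adjusted p of 0.42 on all spots, and without the female of batch 2 the value was 0.41 (adjusted p 0.571). SCN9A in SCN10A-positive spots was at 0.53 ± 0.21 (adjusted p 0.173) and at 0.20 ± 0.29 (0.908) when matched. Only 203 spots held SCN10A, so a difference of the size of these standard errors was not detectable.

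Nociceptor genes were higher, and large-fibre genes lower, in spots with SCN11A. Of 7 tested peptidergic nociceptor genes, 5 rose and 0 fell in the matched pairs, with a median of 0.62 against -0.01 over all 11077 genes, of which 6.75% rose and 6.58% fell. CALCA rose by 0.85 ± 0.08, from 257 to 593 CPM in the female and 315 to 587 CPM in the male of batch 1, and from 285 to 579 CPM and 547 to 642 CPM in those of batch 2. CALCB, which encodes a second CGRP peptide, rose by 0.62 ± 0.07, TAC1 by 0.52 ± 0.06, TRPV1 by 0.87 ± 0.10 and TRPA1, an irritant receptor, by 1.26 ± 0.26. TRPV1 and TRPA1 were not higher in every specimen: in the male of batch 2 they were at 52.9 against 55.4 CPM and at 3.21 against 3.39 CPM.

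Of 9 tested genes of other nociceptors, 6 rose and 0 fell in the matched pairs, with a median of 0.76. MRGPRX1, an itch receptor, rose by 1.73 ± 0.19, NPPB, an itch neuropeptide, by 1.51 ± 0.35, and SST, the neuropeptide somatostatin, by 1.04 ± 0.12. CHRNA3, a nicotinic receptor subunit, rose by 0.87 ± 0.11, GFRA2, a neurturin receptor, by 0.68 ± 0.09, and RET by 0.44 ± 0.06. OSMR was at 0.76 ± 0.29, PENK at 0.44 ± 0.20 and TRPM8 at 0.31 ± 0.21, and these did not pass.

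Of 7 tested large-fibre genes, 4 fell and 1 rose in the matched pairs of SCN11A. PVALB, a calcium buffer of proprioceptors, fell by 0.96 ± 0.06, with lower values in 4 of 4 specimens. NEFH, the heavy neurofilament chain of large neurons, fell by 0.66 ± 0.06, SPP1 by 0.56 ± 0.06 and NEFL by 0.54 ± 0.06. PIEZO2, the mechanically gated channel of touch, rose by 0.36 ± 0.09. The markers of other cells that moved with SCN11A were 5 of 5 fibroblast genes, 3 of 4 smooth muscle genes, 3 of 6 myelinating Schwann genes, 2 of 4 satellite glia genes, 1 of 3 endothelial genes (PECAM1, at -0.59 ± 0.13) and 1 of 3 adipocyte genes (FABP4, at -0.86 ± 0.14), all lower; their part in the result was not tested.

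Sodium channel partners split in spots with SCN11A: 3 rose and 3 fell of 11 tested in the matched pairs. S100A10, the annexin partner that carries the SCN10A channel to the membrane, rose by 0.40 ± 0.05. SCN2B rose by 0.54 ± 0.13, and NEDD4L, a ubiquitin ligase of sodium channels, by 0.40 ± 0.07. Of those lower, SCN4B, the subunit of resurgent current, fell by 0.39 ± 0.06 and FGF11, a fibroblast growth factor homologous factor, by 0.70 ± 0.11. None of the 3 other alpha subunits tested, SCN1A, SCN7A and SCN8A, passed.

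SCN10A-positive spots had the same named markers in part. Of 5 tested peptidergic genes 4 rose in the 201 matched pairs, where 1.03% of 4746 genes rose and 1.43% fell. TRPV1 rose by 1.10 ± 0.18, CALCA by 0.70 ± 0.10, TAC1 by 0.59 ± 0.08 and CALCB by 0.41 ± 0.08. In the male of batch 2, CALCA and TAC1 were not higher, at 560.1 against 588 CPM and at 895 against 958 CPM. None of the 4 tested genes of other nociceptors passed, with SST at -0.15 ± 0.17 and RET at 0.32 ± 0.11. Of 5 tested large-fibre genes 4 fell: PVALB by 0.84 ± 0.11, NEFH by 0.55 ± 0.07, SPP1 by 0.53 ± 0.07 and NEFL by 0.46 ± 0.06. S100A10 rose by 0.29 ± 0.06, while SCN4B fell by 0.39 ± 0.10. None of the tested fibroblast, smooth muscle, myelinating Schwann or satellite glia genes passed in these pairs.

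In the 1444 pairs of SCN9A, 1.13% of 10820 genes rose and 1.96% fell. Of 7 tested peptidergic genes 4 rose, among them CALCB by 0.27 ± 0.04, TAC1 by 0.24 ± 0.04 and CALCA by 0.16 ± 0.04. Of 9 tested genes of other nociceptors 3 rose, PENK by 0.93 ± 0.22, MRGPRX1 by 0.52 ± 0.14 and RET by 0.15 ± 0.04. CALCA, PENK and RET were higher in 3 of 4 specimens, and lower in the male of batch 2, at 607 against 666 CPM, 0.0 against 1.17 CPM and 259 against 278 CPM. PVALB fell by 0.97 ± 0.07, SPP1 by 0.41 ± 0.05 (not in the male of batch 2, at 868 against 816 CPM), NEFH by 0.34 ± 0.04 and NEFL by 0.27 ± 0.04. Among partners SCN2B rose by 0.68 ± 0.10 and NEDD4L by 0.23 ± 0.06, and FGF11 fell by 0.79 ± 0.12. Of other cell types, 3 of 5 fibroblast and 2 of 4 smooth muscle genes were lower, and their part was not tested.

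**Figure D5:**
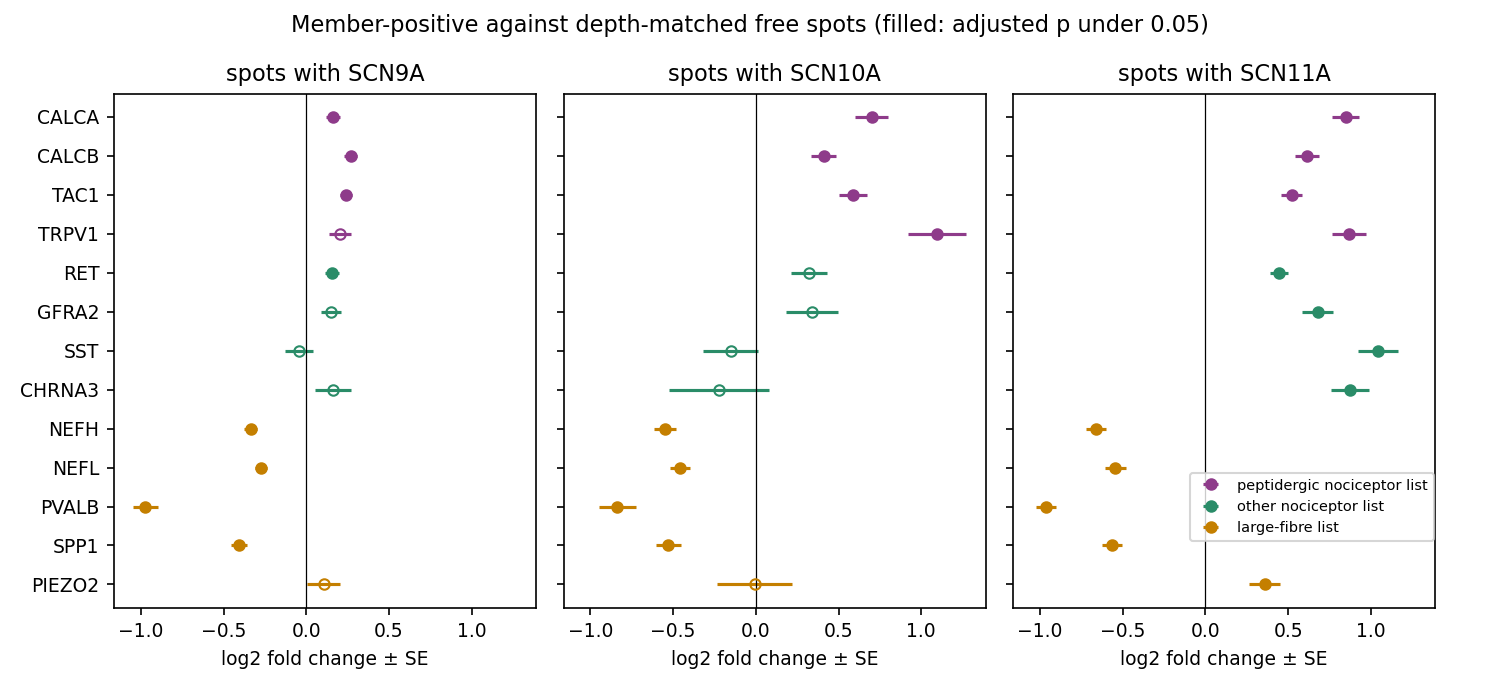
Log2 fold change ± SE (horizontal axis) of nociceptor and large-fibre genes between spots with a member and free spots of the same section matched within 10% on UMI total (1444, 201 and 3679 pairs), over 4 *M. fascicularis* specimens; filled points have an edgeR adjusted p under 0.05. CALCA, CALCB and TAC1 lie right of 0 and NEFH, NEFL, PVALB and SPP1 left of it in all 3 panels.

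The direct comparison of the channel kinds set 4859 spots with SCN10A or SCN11A and no SCN9A against 416 spots with SCN9A and neither of the others. Their median depths were 4246 and 4037 UMIs and their median neuron-list shares 1.24% and 1.28%. Nearly all spots of the first kind, called tetrodotoxin-resistant below, held SCN11A. Over all spots SCN11A was in 5866 and SCN10A in 203, and 159 of the latter also held SCN11A. The comparison therefore says little about SCN10A on its own. Of 9880 genes 5.22% passed: 2.88% with more in the tetrodotoxin-resistant spots and 2.34% with less. SST was at 104 against 18.2 CPM, 127.5 against 37.0 CPM, 199 against 48.6 CPM and 187 against 126.5 CPM in the 4 specimens, a log2 fold change of 1.76 ± 0.14 (edgeR adjusted p 2.99e-23). Every specimen had more SST in the spots with a resistant channel.

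Of 7 tested peptidergic genes 4 were higher in the tetrodotoxin-resistant spots: TRPV1 by 0.75 ± 0.14, CALCA by 0.68 ± 0.08, CALCB by 0.40 ± 0.07 and TAC1 by 0.25 ± 0.07. Of 8 tested genes of other nociceptors 5 were higher, SST, MRGPRX1 at 1.99 ± 0.34, CHRNA3 at 0.86 ± 0.22, GFRA2 at 0.70 ± 0.13 and RET at 0.32 ± 0.09. NEFH fell by 0.68 ± 0.06, NEFL by 0.55 ± 0.06 and SPP1 by 0.41 ± 0.07, and PVALB was at -0.24 ± 0.08 and did not pass (adjusted p 0.058). Among partners SCN4B fell by 0.52 ± 0.07, and S100A10 rose by 0.47 ± 0.06. The fibroblast genes DCN and LUM and the satellite glia genes EDNRB and KCNJ10 were lower too, by 0.38 to 0.69, as was 1 of 6 immune genes, LYZ, at -0.44 ± 0.11, and their part was not tested.

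By the rule of size, the named genes highest in the tetrodotoxin-resistant spots were GPAT2 (2.48 ± 0.36), KCNK18 (2.36 ± 0.46), GIP (2.30 ± 0.39), MRGPRX1 and PRKCD, a protein kinase C, at 1.87 ± 0.20. KCNK18 encodes a background potassium channel of sensory neurons, and GIP an incretin hormone. These rest on few UMIs in the SCN9A-only spots, 10, 7, 9, 13 and 42 in the same order. The genes ENOX2 (-1.45 ± 0.29), SYT12 (-1.30 ± 0.26) and EFNA3 (-1.14 ± 0.32) were the lowest. The same rule named MRGPRX1, KCNK18, PAQR5, GIP and DYDC2 for SCN11A-positive against all free spots, at 2.16 ± 0.16 to 1.93 ± 0.22, and all 5 passed in the matched pairs too, at 1.24 to 1.95.

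For SCN9A the rule named PAQR5, KCNK18, SCGN, SMIM45 and MRGPRX1, at 1.14 ± 0.25 to 0.77 ± 0.12 against all free spots; of these MRGPRX1 passed in the matched pairs. For SCN10A it named KCNK18 (1.18 ± 0.28), FAM3B, LPO, SYNPR and SCMH1, of which FAM3B, at 1.10 ± 0.26, and SYNPR, at 0.48 ± 0.14, passed when matched, and KCNK18 and SCMH1 had too few UMIs to be tested there. The genes lowest in spots with SCN9A were CCL26, ACTG2 and PEBP4, and in spots with SCN11A IL17B, PLA2G2A and SECISBP2L, by 2.47 ± 0.23 to 2.76 ± 0.24 against all free spots. In the matched pairs CCL26 (-0.49 ± 0.42), ACTG2 (-1.51 ± 0.43), PEBP4 (-1.16 ± 0.49) and SECISBP2L (-0.55 ± 0.31) did not pass, while IL17B (-0.90 ± 0.29) and PLA2G2A (-0.81 ± 0.11) did. In SCN10A-positive spots ITGA10, ATRX and EFCC1 had 0 UMIs against 268, 397 and 240 in the free spots, at least 2.82-fold, 4.17-fold and 2.52-fold lower (3 counts over the arm). This set 203 positive spots against 18391 free ones, and these genes were not tested in the matched pairs.

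Across spots the genes whose pattern was most like SCN11A were RGS4, RBP4, the unnamed feature ENSMFAG00000032857, PPEF1 and SYNPR. Likeness was the median over 15 sections of the correlation of log levels given log depth, among 7423 features, and came to 0.256, 0.253, 0.243, 0.237 and 0.220; each was above 0 in 15 of 15 sections. These are descriptions over spots that share a library, and have no p. RGS4 encodes a regulator of G-protein signalling, RBP4 a retinol carrier and SYNPR a synaptic vesicle protein. SCN9A ranked 420 and SCN10A 592 in likeness to SCN11A, at 0.0502 and 0.0411. In the other direction, with the same correlations, SCN11A ranked 6 of 7423 features in likeness to SCN9A and 4 of 7424 in likeness to SCN10A. They were above 0 in 14 and 12 of 15 sections. For SCN9A and SCN10A themselves the highest medians, LXN at 0.0543 and ENSMFAG00000032857 at 0.0453, were too weak in such sparse counts to name a pattern.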

How the data were processed

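The deposited matrices and gene tables hold UMI counts per gene, made by the authors with Space Ranger 2.0.0 (12 sections) and 2.1.0 (7 sections), per the file headers. The submitters' processing notes name the build Mmul_10 with no role; the build behind each feature set is not given in the sources used here. Moran's I is a score, deposited by the authors with its p-value and adjusted p-value, and was only described. In 19 sections the table and the matrix sums differed for 0 genes; the least different of 26 section pairs had a chi-square per degree of freedom of 3.93, so each section was its own library. A total limits precision by counting error only.

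Spots under tissue with at least 200 UMIs were used. UMIs were summed per specimen and side of a comparison and tested with edgeR 4.0.16 (TMM, filterByExpr, quasi-likelihood test, Benjamini-Hochberg over all genes tested, adjusted p under 0.05), in R 4.3.3; SE is the log2 fold change over the root of F. The gene or genes that split the spots were left out of tests and totals. DESeq2 1.42.0, limma 3.58.1 (voom), other filters, depths and left-out sections or specimens were alternatives. Named genes were the 3 members, list genes and, per spot comparison, the 5 largest rises and 3 largest falls among genes with a symbol, an adjusted p under 0.05, at least 200 UMIs and 1 direction in 4 of 4 specimens. Likeness used spots with at least 500 UMIs and features with a mean of at least 0.05 UMIs. The members, lists and tests were chosen with earlier results of these data known. On simulated counts for the batch comparison, 71% of genes changed 2 log2 units and 9.47% of those changed 1 were recovered, with 1 unchanged gene called; for SCN11A-positive spots it was 100% and 92%, with 18 unchanged genes called. Some genes of the lists are counted but not reported here by name.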

Additional observations from a re-analysis of the deposited data

Results flagged for a closer look

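Among 36 groups of 4 sections looked at for a section far from the others, 2 had one. Chance gives about 1 in 20. In the female of batch 1, section 2 had SCN9A in 21.0% of its spots, against 7.57% to 9.43% in the other 3 sections; it was also the section with the highest median depth, 5145 UMIs per spot, and its SCN9A level in CPM lay among the others. In the male of batch 1, section 2 had a Moran's I of 0.0528 for SCN10A in the authors' deposited table, against -0.00405 to -0.00142 in the other 3 sections; it rests on 10 spots with 1 UMI each.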

How the results depend on the processing

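Of 122 alternative fold changes of members, not counting left-out libraries, 102 kept direction and side of the threshold, 15 no longer passed, 2 newly passed and 3 turned: SCN10A between sexes at 0.19 when thinned, and in SCN10A-positive spots SCN9A at -0.27 with at least 2 UMIs and SCN11A at -1.25 when thinned, where 21 positive spots remained; none of these passed.

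Genes called between batches were 364, and 1279 without a low-count filter, 129 thinned and 4345 with sections as samples; between sexes they were 67 without the filter and 8 with sections. Section numbers only partly went together: 9 of 24 same-numbered pairs correlated above 0.1, and 3 of 16 sections best with their own number. With the number as a replicate block, 4448 and 5 genes were called. Leaving out a section gave 115 to 942 between batches (115 and 120 without male batch 2 section 1 or 2; 674, 942 and 564 without female batch 1 section 1 or 4 or female batch 2 section 1) and 0 to 0 between sexes, with SCN10A between -0.19 and 0.0898 between sexes. SCN11A between batches passed with sections as samples, at -0.78 (adjusted p 0.018).

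Without the specimen block, neuron-share calls were 1827 and all the other spot comparisons gave 0 calls; thinned to 500 UMIs the calls were 2104 for neuron share and 143, 0, 272 and 3 for SCN9A, SCN10A, SCN11A and the direct comparison. DESeq2 called 861, 130, 1633 and 248 in these last 4. With at least 2 UMIs, SCN9A gave 1195 and SCN10A 6 calls; in the spots richer in neuron genes they gave 759 and 236; in matched pairs SCN9A, SCN10A and SCN11A gave 334, 117 and 1477. Leaving out a specimen gave 2089 to 5564 (neuron share), 1106 to 2180, 122 to 521, 1498 to 3151 and 268 to 475. Calls fell by over 1.5 times without the female or male of batch 1 for neuron share (2116, 2089), SCN9A (1106, 1116) and SCN11A (1498, 1558), without the female of batch 1 or 2 for SCN10A (206, 122), and without the male of batch 1 or female of batch 2 in the direct comparison (337, 268). The main counts were 4096, 2056, 428, 2859 and 516.

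Without strata the co-detection ratios were 2.00, 2.59 and 3.59 (SCN9A with SCN11A, SCN10A with SCN11A, SCN9A with SCN10A); thinned, the first was 1.66 from 33 spots and the last 4.19 from 1 spot. With a further minimum of 0.1 on the deposited Moran's I, 0, 0 and 9 sections remained for SCN9A, SCN10A and SCN11A. Levels over named or shared features were higher by construction (fewer features in the total). The cause of the other shifts was not tested. Depth limits SCN10A most, with 233 UMIs in 16 sections.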
